A study of Mus musculus with 4 samples.

Results

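The genes described here mark the cells of blood vessels. They were 10 of the 21834 genes in the deposited tables, taken by name: 7 that are used to mark endothelial cells (Pecam1, Cdh5, Cldn5, Kdr, Flt1, Tek and Esam) and 3 that are used to mark pericytes (Pdgfrb, Rgs5 and Cspg4). All 10 had a usable value in all 4 libraries, so no filter on low values removed any of them. The libraries held poly(A) RNA of mouse retina at postnatal day 12 on the slc:ICR background, sorted by flow cytometry into cells with Cd73 on their surface (Cd73P, enriched for rods) and cells without it (Cd73N, the remaining cells of the retina). Each fraction was collected from wild type retina and from Ezh2-CKO retina, in which a floxed Ezh2 gene was removed by Cre under DKK3, which acts in retinal progenitors from an early embryonic stage. Wild type means normal littermates, whose floxed and Cre alleles are not given in the sources used here, and neither is the number of retinas pooled at this age. Ezh2 is the methyltransferase of the Polycomb complex PRC2.

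Retinal vessels are tubes of endothelial cells wrapped by pericytes, which lie in the same basement membrane. Endothelial cells grow towards the growth factor Vegfa, which they sense through Kdr and Flt1, and they recruit pericytes by releasing Pdgfb, which pericytes sense through Pdgfrb. Both cell types enter the retina from outside and do not descend from the retinal progenitors in which this Cre acts. Kdr is also known from retinal progenitors and Müller glia, so it does not mark endothelium alone.

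There was 1 library per group, so replicate spread is unknown and no test between groups was run. Levels are FPKM, reads scaled to exon length and to the mapped total of the library, and can be compared between genes because they are per length. Differences are log2 ratios of FPKM + 1 with a standard error (SE) that covers counting error only, and a gene was called higher or lower where it differed by 1.5-fold or more. The labels were checked first. Ezh2 itself was listed at 14.1 FPKM in wild type Cd73N, 15.9 in the Cd73N library labelled Ezh2-CKO, 5.38 in wild type Cd73P and 3.45 in Cd73P labelled Ezh2-CKO. Its transcript was thus not reduced in the Cd73N sample of the knockout label (log2 ratio 0.17, SE 0.056), and every direction given for that library rests on its label. Nt5e, the gene of Cd73, was listed at 0.844 and 0.609 FPKM without Cd73 on the surface (Cd73N) and at 125 and 123 with it (Cd73P). Depth inferred from the deposited bounds lay between 1 and 1.17 times that of the wild type Cd73N library, and between 10356 and 12747 genes reached 1 FPKM.

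Promoter sequences are shown for the 3 receptors of the set that the RefSeq table held, Kdr, Flt1 and Tek, because the first 2 of them had the largest genotype ratios of the set in Cd73N and Tek, a receptor of the same cells, had one near 0. Each runs from 250 bases before to 50 bases after the start of the gene, on the strand of the gene and in GRCm38.p6 coordinates. They lie at chr5:75978406-75978705 on the minus strand for Kdr, at chr5:147725962-147726261 on the minus strand for Flt1 and at chr4:94739039-94739338 on the plus strand for Tek. Capitals mark matches to AGGAAG, a form of the ETS factor motif, or to AGATAA, a form of the GATA factor motif, searched on both strands.
Kdr: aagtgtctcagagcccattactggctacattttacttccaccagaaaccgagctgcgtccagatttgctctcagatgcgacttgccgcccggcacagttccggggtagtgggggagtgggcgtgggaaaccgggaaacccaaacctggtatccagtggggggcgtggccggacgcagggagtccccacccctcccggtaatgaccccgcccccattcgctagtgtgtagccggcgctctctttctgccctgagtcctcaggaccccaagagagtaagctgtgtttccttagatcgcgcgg
Flt1: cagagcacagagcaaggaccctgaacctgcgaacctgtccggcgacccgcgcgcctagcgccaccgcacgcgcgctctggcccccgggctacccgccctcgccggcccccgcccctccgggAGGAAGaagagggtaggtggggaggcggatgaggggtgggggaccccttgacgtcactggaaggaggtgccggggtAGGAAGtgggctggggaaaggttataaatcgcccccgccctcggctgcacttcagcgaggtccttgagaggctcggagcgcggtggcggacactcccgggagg
Tek: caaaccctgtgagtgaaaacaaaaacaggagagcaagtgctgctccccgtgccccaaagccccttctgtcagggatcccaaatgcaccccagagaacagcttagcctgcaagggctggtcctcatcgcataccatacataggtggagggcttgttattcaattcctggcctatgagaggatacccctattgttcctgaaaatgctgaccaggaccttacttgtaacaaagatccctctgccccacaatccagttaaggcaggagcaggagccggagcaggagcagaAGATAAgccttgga
The Flt1 window held 2 ETS matches, which start 129 and 53 bases before the start of the gene, and the Tek window held 1 GATA match, 36 bases after it. The Kdr window held neither. The ETS letters occurred in 35.4% and the GATA letters in 11.2% of 32851 mouse promoter windows of this length, so a match is common and describes only these letters. GC content was 60.7% in Kdr, 70.7% in Flt1 and 52% in Tek, against a median of 52.7% over all windows.

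The pericyte genes were at 2.97 to 209.7 FPKM in the Cd73N fraction and at 3.76 FPKM or less in the Cd73P fraction. Rgs5, a regulator of G protein signalling that is abundant in pericytes, was the highest of all 10 genes, at 173 FPKM in wild type Cd73N and 209.7 in Cd73N labelled Ezh2-CKO, against 3.76 and 1.13 in the same order in Cd73P. Pdgfrb, the receptor for Pdgfb, was at 19.7 and 21.2 FPKM in Cd73N and at 0.222 and 0.109 in Cd73P. Cspg4, the NG2 proteoglycan of the pericyte surface, was at 4.32 and 2.97 FPKM in Cd73N and at 0.0389 and 0.0402 in Cd73P. For each of the 3 genes both Cd73N libraries lay above both Cd73P libraries. In wild type the log2 ratio of Cd73P to Cd73N was -5.20 (SE 0.080) for Rgs5, -4.09 (SE 0.045) for Pdgfrb and -2.36 (SE 0.039) for Cspg4. The pericyte genes summed in Cd73P to 2.03% of their Cd73N level in wild type and to 0.546% in Ezh2-CKO, and Rgs5 made up most of each sum. Taken singly, this share was 2.17% and 0.537% for Rgs5, 1.12% and 0.515% for Pdgfrb, and 0.900% and 1.36% for Cspg4. The FPKM of Rgs5 lay above its own deposited upper bound in both Cd73N libraries, so its counting error there rests on bounds that miss the value.

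Between genotypes the pericyte genes stayed within 1.5-fold in Cd73N. Their log2 ratios were 0.27 (SE 0.020) for Rgs5, 0.10 (SE 0.034) for Pdgfrb and -0.42 (SE 0.052) for Cspg4, so none of the 3 was called and they did not share a direction. The same holds for a wider list of 16 genes of pericytes and vascular smooth muscle, of which 0 were higher and 0 were lower by genotype in Cd73N (median log2 ratio -0.06). Kcnj8 and Abcc9, which form the potassium channel of pericytes, were at 31.5 and 16.9 FPKM in wild type Cd73N and at 30.6 and 16.2 in Cd73N labelled Ezh2-CKO. Higd1b was at 36.8 and 31.6 FPKM in the same order, Ndufa4l2 at 41.5 and 34.3, the adhesion molecule Mcam at 20.6 and 16.7 and the transcription factor Foxs1 at 8.53 and 6.82. Notch3, the Notch receptor of mural cells, was at 4.2 and 5.25 FPKM, and Heyl, a Notch target, at 9.27 and 9.71. Across all genes 7.19% were higher and 1.71% were lower in this comparison, and across genes of at least 1 FPKM in 1 of the 2 libraries 11.6% and 2.86%. After scaling to 8 broadly expressed genes Rgs5 came to 0.70 and counted as higher, as did 2 of the 16 wider mural genes, and the median of the wider list turned to 0.26. In bulk RNA fewer cells of a type and less RNA per cell cannot be told apart, so these levels do not count pericytes.

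In the comparison of fractions 12 of the 16 wider mural genes were lower in Cd73P in wild type and 13 in Ezh2-CKO, with medians of -2.34 and -2.47, where 27.9% and 29.1% of all genes, and 45.9% and 45.6% of genes of at least 1 FPKM in 1 of the 2 libraries, were lower. Foxs1 was at 0.0590 and 0.0570 FPKM in the 2 Cd73P libraries and Notch3 at 0.0844 and 0.0707. Vtn, vitronectin, was the 1 gene of the list that was higher in Cd73P in both genotypes, at 164 and 344 FPKM against 97.7 and 93.7 in Cd73N. Of the basement membrane list 9 of 9 genes were lower in Cd73P in both genotypes. Col4a1 and Col4a2, the collagen chains of vascular basement membrane, were at 44.9 and 27.7 FPKM in wild type Cd73N and at 2.0 and 1.2 in wild type Cd73P.

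**Figure D1:**
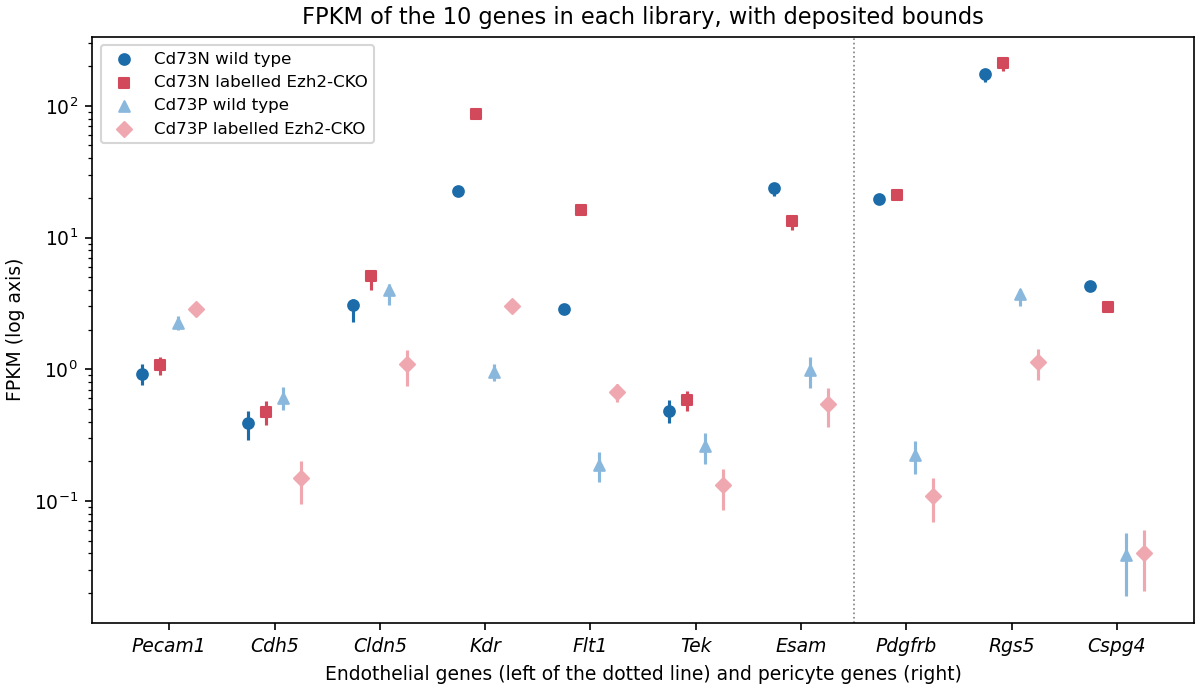
FPKM of the 10 genes in each of the 4 libraries on a log axis, with bars for the deposited lower and upper bounds, which cover counting within a library. Rgs5, Pdgfrb, Cspg4, Kdr, Flt1 and Esam stand higher in both Cd73N libraries, with Rgs5 the highest at 173 and 209.7 FPKM, while Cdh5 and Tek stay under 1 FPKM everywhere.

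The endothelial genes differed widely from each other in level, and Cdh5 and Tek were under 1 FPKM in every library. Cdh5, the cadherin of endothelial junctions, was at 0.388 FPKM in wild type Cd73N, 0.477 in Cd73N labelled Ezh2-CKO, 0.610 in wild type Cd73P and 0.150 in Cd73P labelled Ezh2-CKO. Tek, the Tie2 receptor for angiopoietins, was at 0.485, 0.584, 0.259 and 0.132 FPKM in the same order. Neither gene was higher or lower by 1.5-fold on the log2(FPKM + 1) scale in any of the 4 comparisons, a scale on which changes at such levels are small by construction. The Cdh5 values rested on an implied 66.8, 100, 98.2 and 31.4 fragments. A wider list of 30 endothelial genes was also low, with a median of 0.641 FPKM in wild type Cd73N and 0.795 in Cd73N labelled Ezh2-CKO, where 12 and 14 of the 30 genes reached 1 FPKM. The transcription factor Erg was at 0.140 and 0.144 FPKM, whereas Tie1 was at 3.12 and 2.98 and Emcn at 4.57 and 4.26. Of the 7 endothelial genes, Kdr and Esam passed 10 FPKM in both Cd73N libraries, and Cldn5, at 3.08 and 5.09 FPKM, lay between them and Cdh5. Transcripts used as endothelial markers thus differed widely in wild type Cd73N. They ranged from under 1 FPKM for Cdh5, Tek and Erg to 14.3 for Ramp2, 22.6 for Kdr and 23.9 for Esam. Which cells they came from, and what share of the cells they stand for, was not tested.

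Pecam1, an adhesion molecule of endothelial cells, platelets and leukocytes, was the only one of the 10 genes called higher in Cd73P in both genotypes, and under the deposited values no other was called so in either. In wild type Cldn5 (log2 ratio 1.22) and Cdh5 (0.73) joined it after scaling to 8 broadly expressed genes. It was at 0.928 and 1.07 FPKM in Cd73N and at 2.25 and 2.85 in Cd73P, so both Cd73P libraries lay above both Cd73N libraries. The log2 ratio of Cd73P to Cd73N was 0.75 (SE 0.088) in wild type and 0.90 (SE 0.081) in Ezh2-CKO. Between genotypes Pecam1 differed by 0.10 (SE 0.086) in Cd73N, an interval from -0.06 to 0.27 that includes 0, and by 0.25 (SE 0.084) in Cd73P. The blood list of 7 genes, which includes the haemoglobins, went the other way, with a sum in Cd73P of 0.771% of that in Cd73N in wild type. Of 14 microglia genes 12 were lower in Cd73P in wild type and 0 were higher. Among all genes 27.9% were lower and 9.07% were higher there, and 45.9% and 15.4% of genes of at least 1 FPKM. The part of blood cells or microglia in the Pecam1 value was not tested. Podxl, a sialomucin of endothelium and other cells, was the 1 gene of the wider endothelial list that was higher in Cd73P, at 98.1 and 98.9 FPKM against 7.43 and 9.27.

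Of the 10 genes, 1 was higher and 6 were lower in Cd73P than in Cd73N in wild type, and 1 was higher and 7 were lower in Ezh2-CKO. Among all genes 9.07% were higher and 27.9% were lower in wild type, and 8.41% were higher and 29.1% were lower in Ezh2-CKO. Among genes of at least 1 FPKM in 1 of the 2 libraries the shares were 15.4% and 45.9% in wild type and 13.8% and 45.6% in Ezh2-CKO. The median log2 ratio of the 10 genes was -2.03 in wild type and -2.57 in Ezh2-CKO, against -0.05 and -0.09 over all genes and -0.47 and -0.46 over genes of at least 1 FPKM. The gene that was lower only in the Ezh2-CKO pair was Cldn5. Each library enters 2 of the 4 comparisons, so the comparisons of fractions and of genotypes are not independent of each other.

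**Figure D2:**
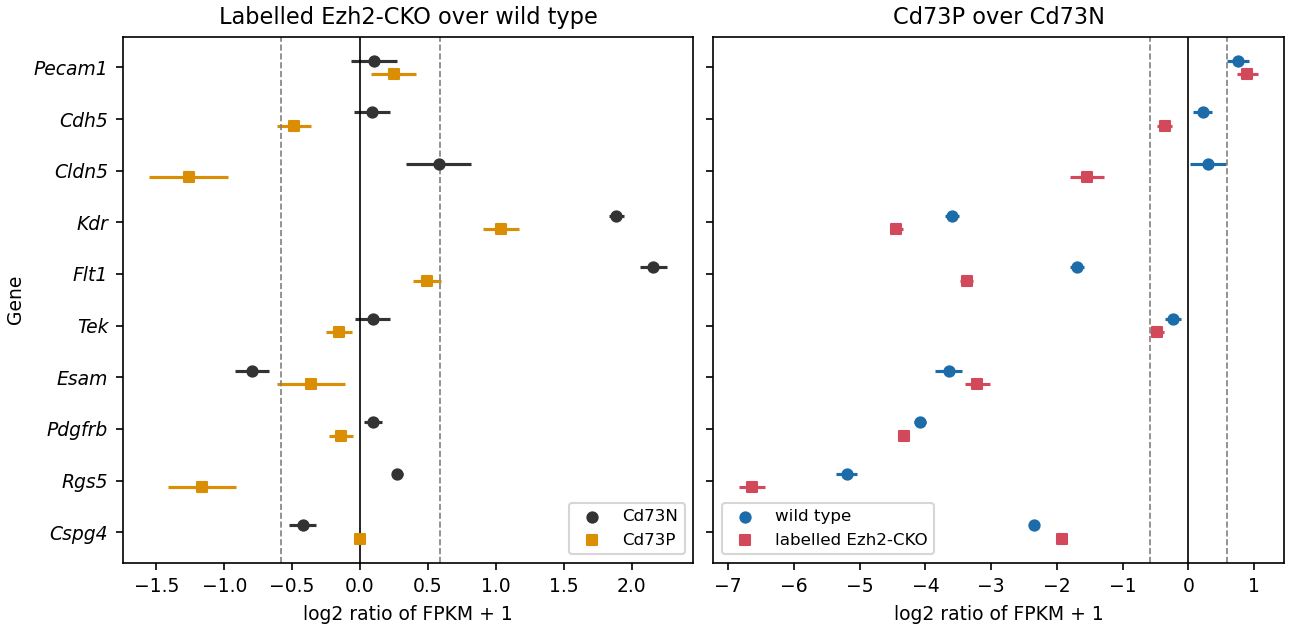
Log2 ratios of FPKM + 1 for the 10 genes, on the left Ezh2-CKO against wild type in each fraction and on the right Cd73P against Cd73N in each genotype, with bars for 95% counting intervals and dashed lines at 1.5-fold. On the left Kdr and Flt1 stand apart at 1.89 and 2.16 in Cd73N, and on the right Pecam1 lies above 1.5-fold in both genotypes, at 0.75 and 0.90.

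The VEGF receptors gave the largest genotype differences of the set in Cd73N, while in Cd73P the ratios of Cldn5 and Rgs5 were larger in size. Kdr, the main signalling receptor for Vegfa, was at 22.6 FPKM in wild type Cd73N and 86.2 in Cd73N labelled Ezh2-CKO, and at 0.955 and 3.01 in Cd73P. Flt1, which binds Vegfa and limits its supply to Kdr, was at 2.86 and 16.2 FPKM in Cd73N and at 0.186 and 0.669 in Cd73P. For both genes the library labelled Ezh2-CKO was the higher one in each fraction, and the Cd73N libraries lay above the Cd73P libraries. In Cd73N the log2 ratio was 1.89 (SE 0.028, 95% counting interval 1.83 to 1.94) for Kdr and 2.16 (SE 0.052, interval 2.06 to 2.26) for Flt1, which are 3.82-fold and 5.68-fold in plain FPKM. The 86.2 FPKM of Kdr, like both Cd73N values of Esam, exceeded the upper bound listed with it. Of all genes compared, 99.4% had a lower ratio than Kdr and 99.7% a lower ratio than Flt1. In Cd73P the log2 ratio of Kdr was 1.04 (SE 0.068), and that of Flt1 was 0.49 (SE 0.053), under the 1.5-fold threshold at levels below 1 FPKM.

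Some ligands and receptors of vascular growth were higher in the same library, and most were not called. Of 13 vascular ligands 3 were higher in Cd73N labelled Ezh2-CKO and 0 were lower, with a median of 0.26, against 7.19% and 1.71% of all genes and 11.6% and 2.86% of genes of at least 1 FPKM in 1 of the 2 libraries. Vegfa was at 36.5 FPKM in wild type Cd73N and 87.2 in Cd73N labelled Ezh2-CKO (log2 ratio 1.24, SE 0.032), and Ndp, which encodes Norrin, at 2.31 and 7.55 (log2 ratio 1.37, SE 0.11). Vegfb was at 26.6 and 23.0 FPKM, and Jag1, a Notch ligand, at 3.06 and 4.05. Of 15 further vascular receptors and their partners and targets 5 were higher and 0 were lower, with a median of 0.29. Among them were the Norrin co-receptor Lrp5, at 2.86 and 7.08 FPKM, and Tspan12, which acts with it, at 4.61 and 7.76, whereas the Norrin receptor Fzd4 itself was at 2.78 and 3.09. Notch1 was at 3.86 and 10.5 FPKM and the Notch target Hey2 at 3.25 and 9.996, while Hey1 was at 13.0 and 12.9. The lowest log2 ratio among the named receptors was that of Nrp2, a co-receptor for VEGF and semaphorins, at 5.21 and 4.23 FPKM (-0.25). S1pr1, a sphingosine phosphate receptor, was at 4.94 and 24.3 FPKM (log2 ratio 2.09, SE 0.066). It and Tal1, which was under 1 FPKM, were the 2 genes of the wider endothelial list that were higher, and 0 of the 30 were lower, which is close to the 7.19% and 1.71% of all genes. Ets1 was at 5.34 and 5.59 FPKM and Ramp2 at 14.3 and 12.1.

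Genes of other cell types and of the early stress response were higher in this library as well. All 11 of 11 Müller glia genes were higher in Cd73N labelled Ezh2-CKO. Their median log2 ratio was 2.1, with a summed FPKM of 5557 against 1093 in wild type. Of 10 immediate early genes, which respond to stress and to cell dissociation, 8 were higher and 0 were lower, with a median of 2.48 and a summed FPKM of 1385 against 289.5. Of 14 microglia genes 5 were higher, with a median of 0.51, and of 5 astrocyte genes 3 were higher, with a median of 0.60. Among all genes 7.19% were higher in this comparison, and 11.6% of genes of at least 1 FPKM in 1 of the 2 libraries. In Cd73P 8 of 11 Müller glia genes were higher, with sums of 215 against 94.95 FPKM. There 2.27% of all genes were higher, and 4.33% of genes of at least 1 FPKM in 1 of the 2 libraries. The part of these cell types and of the early response in the Kdr and Flt1 values was not tested. Of the other endothelial genes, Cdh5, Tek and Pecam1 had log2 ratios of 0.09 (SE 0.068), 0.09 (SE 0.067) and 0.10 (SE 0.086), each with an interval that includes 0. Scaled to 8 broadly expressed genes the same ratios were 0.24, 0.27 and 0.34, while Cldn5 and Esam, described next, were at 0.58 and -0.80 as deposited.

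**Figure D3:**
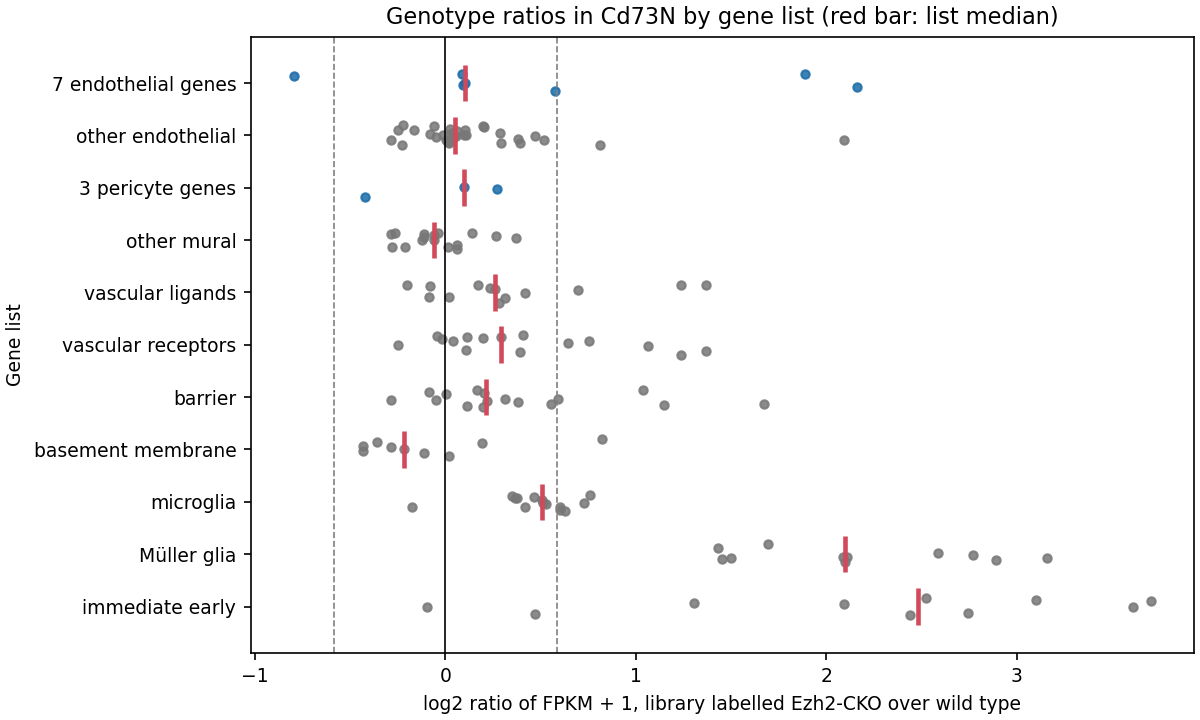
Log2 ratios of FPKM + 1 of Ezh2-CKO against wild type in Cd73N, with 1 point per gene, genes grouped by list and a red bar at the median of each list. The pericyte and wider mural lists lie within 1.5-fold, with medians of 0.10 and -0.06, while the Müller glia and immediate early lists have medians of 2.1 and 2.48.

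The junction proteins Esam and Cldn5 did not follow Kdr and Flt1, and they differed from each other in Cd73N. Esam, an adhesion molecule of endothelial junctions, was the only one of the 10 genes that was lower in Cd73N labelled Ezh2-CKO. It was at 23.9 FPKM in wild type Cd73N, 13.3 in Cd73N labelled Ezh2-CKO, 0.989 in wild type Cd73P and 0.548 in Cd73P labelled Ezh2-CKO. The log2 ratio between genotypes was -0.80 (SE 0.063, 95% counting interval -0.92 to -0.67) in Cd73N and -0.36 (SE 0.13) in Cd73P, and in plain FPKM the ratio was 0.558 and 0.554. Only 0.599% of all genes had a lower ratio than Esam in Cd73N. The Cd73N lists of bipolar cell genes (5 of 8 lower, median -0.84) and rod genes (6 of 8 lower, median -1.10) were also lower in this comparison. Among all genes 1.71% were lower, and 2.86% of genes of at least 1 FPKM in 1 of the 2 libraries. The part of bipolar cells and rods in the Esam value was not tested. The call for Esam depended on scaling, as its log2 ratio was -0.40 after the libraries were scaled to 8 broadly expressed genes, which were themselves lower in the library labelled Ezh2-CKO (median log2 ratio -0.43).

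Cldn5, the claudin that seals the junctions of the blood-retina barrier, was at 3.08 FPKM in wild type Cd73N, 5.09 in Cd73N labelled Ezh2-CKO, 4.02 in wild type Cd73P and 1.09 in Cd73P labelled Ezh2-CKO. The library labelled Ezh2-CKO was thus the higher one in Cd73N and the lower one in Cd73P. Cdh5, at under 1 FPKM, also fell in Cd73P, with a plain FPKM ratio of 0.246 against 0.272 for Cldn5. At similarly low Cd73P levels this ratio was 0.318 for Tie1, 0.276 for Ets1, 0.268 for Erg and 0.176 for Emcn. The Emcn values rested on an implied 9.88 and 4 fragments. Other genes of the wider list rose, such as Plvap (2.37) and Robo4 (1.16). Of the 30 wider endothelial genes 0 were higher and 1 was lower by genotype in Cd73P (median log2 ratio -0.18). Among all genes 2.27% were higher and 2.39% lower there. The log2 ratios were 0.58 (SE 0.12), just under the 1.5-fold threshold, in Cd73N and -1.26 (SE 0.15, interval -1.56 to -0.97) in Cd73P. The log2 ratio of Cd73P to Cd73N for Cldn5 was 0.30 (SE 0.14) in wild type and -1.54 (SE 0.13) in Ezh2-CKO. Of 16 other genes of the vascular barrier 4 were higher in Cd73N labelled Ezh2-CKO and 0 were lower, with a median of 0.21, where 7.19% of all genes and 11.6% of those of at least 1 FPKM were higher. The count of higher barrier genes was 5 when scaled by the median ratio or the FPKM sum and 8 when scaled to the 8 broadly expressed genes. The glucose transporter Slc2a1 was at 49.3 and 102.3 FPKM in Cd73N and the lactate transporter Slc16a1 at 21.8 and 71.8, and both are also expressed by other retinal cells, with Slc2a1 at 78.1 and 60.9 FPKM in Cd73P and Slc16a1 at 39.4 and 56.7. The transporter Abcg2, at 6.82 and 10.5 FPKM in Cd73N, had a log2 ratio of 0.55.

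Counted over the 10 genes, 2 were higher (Kdr and Flt1) and 1 was lower (Esam) in Cd73N labelled Ezh2-CKO, where the median log2 ratio was 0.10 against 0.00 over all genes, and 7.19% of all genes were higher and 1.71% lower (11.6% and 2.86% of genes of at least 1 FPKM in 1 of the 2 libraries). Cldn5 was a further higher gene with a pseudocount of 0.1 or none and when scaled by the median ratio or the FPKM sum, at 0.71, 0.72, 0.63 and 0.70. In Cd73P 1 was higher (Kdr) and 2 were lower (Cldn5 and Rgs5), with a median of -0.15, where 2.27% of all genes were higher and 2.39% were lower, and 4.33% and 4.54% of genes of at least 1 FPKM in 1 of the 2 libraries. Rgs5 in Cd73P had a log2 ratio of -1.16 (SE 0.13, interval -1.41 to -0.91) at levels of 3.76 and 1.13 FPKM, which are 2.17% and 0.537% of its Cd73N levels. Pdgfrb and Cspg4, both under 0.3 FPKM in Cd73P, had ratios of -0.14 (SE 0.045) and 0.00 (SE 0.019).

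Ordered by level, the 10 genes gave 30 pairs of neighbouring libraries, and 5 of these pairs did not differ beyond counting error. These were the 2 Cd73N libraries for Pecam1, Cdh5 and Tek, the 2 Cd73P libraries for Cspg4, and wild type Cd73P against Cd73N labelled Ezh2-CKO for Cdh5. The same count was not made over all genes, so it does not set the 10 genes apart from others. The profiles of the genes over the 4 libraries were also compared by Euclidean distance of centred log2(FPKM + 1) values. The nearest pair was Cdh5 and Tek (0.37) and the farthest was Pecam1 and Rgs5 (6.81), while Kdr and Flt1 were 1.54 apart. Among 9884 other genes that reached 5 FPKM, the 8 nearest to the mean of the endothelial genes were Fabp3 (0.055), Golm1, Lrrfip1, Slc1a4, Itm2b, Tpcn1, Cbx6 and Btd (0.14). This mean blends unlike profiles, as Pecam1 and Kdr were 5.03 apart, so its neighbours need not resemble any single endothelial gene. Nearest to Kdr alone were Ptn (0.14), Cp (0.21) and Apoe (0.21), of which Apoe is on the Müller glia list. Nearest to Esam alone were Acpl2 (0.11), Pcdh8 (0.13) and B230217C12Rik (0.14). Which cells gave the Kdr and Esam levels was not tested. The 8 nearest to the mean of the pericyte genes were Sema5b (0.071), Diras2, Robo2, Csdc2, Pde1b, Gm4980, Fez1 and Pcdh7 (0.17). With 4 libraries many genes can lie near any profile, so these names are a description only.

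On mm9 the genes lie on 8 chromosomes. Kdr (chr5:76329299-76374453) and Flt1 (chr5:148373772-148537564) are both on the minus strand of chromosome 5, and Esam (chr9:37335674-37345904) and Cspg4 (chr9:56712911-56747677) both on the plus strand of chromosome 9. Pecam1 is at chr11:106515532-106576595 on the minus strand, and the others are on the plus strand, Cdh5 at chr8:106625525-106668402, Cldn5 at chr16:18776940-18778355, Tek at chr4:94405991-94541630, Pdgfrb at chr18:61204804-61244721 and Rgs5 at chr1:171585632-171623657. All 10 are protein coding, and the exons of no other annotated gene overlap theirs. The annotation holds from 1 to 7 transcripts per gene, which the deposited gene values do not separate.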

How the data were processed

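Poly(A) RNA of 4 sorted fractions was sequenced as 36-base single-end reads. Per the labels and the submitters' processing notes, the tools were bcl2fastq 1.8.4, TopHat2 2.0.8b and Cufflinks 2.1.1 on mm9, and the authors deposited FPKM per RefSeq gene with a lower and an upper bound and a status. FPKM was not scaled between libraries, absolute depth is unknown, and up to 50 hits per read were allowed, so near-identical genes can share reads. Use of strand in counting is not given in the sources used here. Groups were taken from the sample titles, with 1 library each.

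Rows of 235 symbols listed more than once were summed and 724 small RNA symbols were left out, which left 21834 genes, and genes without an OK status in both libraries of a pair were left out of that pair. Ratios were log2(FPKM + 1), which understates changes of weakly expressed genes, and a gene was called at 1.5-fold, the threshold of the study. The width of the deposited bounds was taken as 4 SE. In 5 of the 40 values of the 10 genes the FPKM exceeded the upper bound listed with it (Rgs5 and Esam in both Cd73N libraries, Kdr in Cd73N labelled Ezh2-CKO). Named genes were the 10 genes, Ezh2 and Nt5e, the 4 largest rises and 4 largest falls in Cd73N among genes of each vascular list with FPKM of at least 5, and the 8 nearest profiles. Others (Kcnj8, Abcc9, Vtn, Tie1, Emcn, Erg, Tal1, Fzd4, Flt4, Slc7a5, Plvap and Robo4) were chosen after their values were seen. So were the neighbours of Kdr and Esam alone. The members and lists were chosen with earlier results of these data known, and lists were summarised by counts and medians with no test. Start positions were checked against GENCODE on mm9: of 21354 symbols 10257 starts were equal after adding 1 and 647 as listed, so coordinates have 1 added. Promoters, found for 6 of the 10 genes, are RefSeq GRCm38.p6. Alternatives were pseudocounts, scalings, thresholds and filters on low values. Python 3.11.15, numpy 2.4.6, pandas 2.3.3 and matplotlib 3.10.9 were used. The calling step was also run on simulated data with 2-fold changes in genes of at least 10 FPKM and counting spread only. That run does not cover weakly expressed genes or spread between animals, so it does not bear on most of the 10 genes.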

Additional observations from a re-analysis of the deposited data

Results flagged for a closer look

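The genotype log2 ratio had opposite signs in Cd73N and Cd73P for 6 of the 10 genes, and with 1 library per group the difference between the fractions was not tested. The share of all genes with opposite signs was not worked out, so this count describes only the 10 genes. For Cspg4 the ratio in Cd73P was 0.0019, which is too small to give a direction. The ratio in Cd73N minus that in Cd73P was 1.84 for Cldn5 (0.58 and -1.26), 1.43 for Rgs5 (0.27 and -1.16) and 0.24 for Pdgfrb (0.10 and -0.14), and for these 3 genes each ratio was beyond its counting error. It was 0.58 for Cdh5 (0.09 and -0.49), 0.25 for Tek (0.09 and -0.15) and -0.43 for Cspg4 (-0.42 and 0.00), where at least 1 of the ratios lay within counting error. The median of the 10 genes was 0.10 for Cd73N and -0.15 for Cd73P, which differ by 0.25.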

How the results depend on the processing

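No paired analysis was possible because each group held 1 library and the labels carry no replicate numbers. Over 109 alternative values of the member counts and medians, 72 stayed within 1.5 times the reported count or within the 95% counting error of a typical gene of the reported median, and 37 moved further. Counts cannot change sign, and 0 of the medians did. Scaling to 8 broadly expressed genes was chosen after seeing the data. It subtracts log2 shifts of -1.08 (Cd73P against Cd73N in wild type), -0.55 (the same in Ezh2-CKO), -0.43 (genotype in Cd73N) and -0.15 (genotype in Cd73P), where the median ratio gave -0.34, -0.27, -0.06 and -0.04 and the FPKM sum -0.42, -0.21, -0.15 and 0.05.

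For Cd73P against Cd73N in wild type the count of higher genes, 1, became 0 with a pseudocount of 5, with FPKM of at least 10 or at 2-fold, 2 when scaled by the FPKM sum or without a pseudocount, and 3 with the broadly expressed genes. The median, -2.03, became -3.90 and -0.74 with pseudocounts of 0.1 and 5, -2.97 and -3.87 with FPKM of at least 1 and 10, -4.25 without a pseudocount and -1.88 with the broadly expressed genes. In Ezh2-CKO the count of higher genes, 1, became 0 with a pseudocount of 5, with FPKM of at least 10 and at 2-fold, and the median, -2.57, became -4.39 and -1.23, -3.29 and -4.32, -4.60 and -2.45 under the same settings. For genotype in Cd73N the higher count, 2, became 3 with a pseudocount of 0.1 or none and when scaled by the median ratio or the FPKM sum, each time with Cldn5 (0.63 to 0.72), and 4 with the broadly expressed genes, where Cldn5 (0.94) and Rgs5 (0.70) joined Kdr and Flt1. The lower count, 1, became 0 with that scaling and at 2-fold. The median, 0.10, became 0.23 with a pseudocount of 0.1, 0.27 with FPKM of at least 10 or without a pseudocount, and 0.42 with the broadly expressed genes. For genotype in Cd73P the higher count, 1, became 2 with a pseudocount of 0.1 or none and 0 with 5. The lower count, 2, became 6 with 0.1 or none and 0 with 5. The median, -0.15, became -0.62 with 0.1, -0.46 with FPKM of at least 1 and -0.91 without a pseudocount. With FPKM of at least 10 no gene was left in Cd73P, so there is no value. Moves with the pseudocount follow from its weight at low FPKM, and for the others the cause was not tested.

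Of 240 alternative values of single genes 143 moved beyond their 95% counting error, 97 did not, and 1 changed sign, Tek in Cd73P against Cd73N in wild type, from -0.24 to 0.06 with the broadly expressed genes. With that scaling 2 of the 16 wider mural genes became higher in Cd73N labelled Ezh2-CKO and the list median turned from -0.06 to 0.26, and the FPKM sum gave 0.06 with 0 genes called. The basement membrane median in that comparison turned from -0.22 to 0.09 with the broadly expressed genes. Without replicates, spread between animals and sorts is unknown.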

Other observations

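In Cd73P a few genes of the vascular lists, outside the 10 genes, differed between genotypes, and which cells express them there was not tested. Vtn was at 164 FPKM in the wild type library and at 344 in that labelled Ezh2-CKO (log2 ratio 1.06, SE 0.019). Both values lay above those in Cd73N (97.7 and 93.7), while Pdgfrb was at 0.222 and 0.109 in Cd73P, so Vtn cannot be read as a mural marker in this fraction. Flt4, the receptor for Vegfc on lymphatic and sprouting endothelium, was at 0.278 and 3.57 FPKM (log2 ratio 1.84, SE 0.060), and the junction protein Ocln at 0.682 and 5.78 (log2 ratio 2.01, SE 0.087). Hey1 was lower, at 6.47 and 1.84 FPKM (log2 ratio -1.40, SE 0.11), and so was the amino acid transporter Slc7a5, at 13.3 and 7.10 (log2 ratio -0.82, SE 0.063). Of the 15 receptors and partners 1 was higher and 1 was lower in Cd73P, and of the 16 barrier genes 1 and 1. Among all genes 2.27% were higher and 2.39% were lower, and 4.33% and 4.54% of genes of at least 1 FPKM in 1 of the 2 libraries. With 1 gene each way, these counts say little about the lists.

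In Cd73N the basement membrane genes did not move one way. Sparc, a matrix protein of many cell types, was higher in the library labelled Ezh2-CKO, at 170 and 302 FPKM (log2 ratio 0.82, SE 0.017), and was the 1 gene of 9 called. That count is near the share over genes of at least 1 FPKM in 1 of the 2 libraries, 11.6% higher and 2.86% lower. Over all genes the shares were 7.19% and 1.71%. Col4a1 and Col4a2 had log2 ratios of -0.43 (SE 0.023) and -0.43 (SE 0.031), at 44.9 and 33.0 FPKM and at 27.7 and 20.2 FPKM. The laminin chains Lamb1 and Lamc1 were at 7.17 and 5.71 and at 8.73 and 10.1 FPKM, and the linker protein Nid1 at 17.0 and 15.6. The sum of the 9 genes was 283 FPKM for wild type and 392 for Ezh2-CKO, a rise that rests on Sparc alone. The median log2 ratio of the 9 genes was -0.22.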
